A study of Mus musculus with 8 samples.

Results

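Obp2a and 8 other lipocalin genes of the mouse liver are described here, namely Mup3, Mup20, Mup21, Rbp4, Apom, Apod, Ambp and Ptgds. Lipocalins are small barrel-shaped proteins, most of them secreted, that carry fatty acids, retinol, pheromones and other hydrophobic ligands in blood, urine and tissue fluids. Obp2a encodes the protein also called LCN13, a circulating lipocalin studied for its effects on glucose and lipid metabolism. The major urinary proteins (Mup genes) are made by the liver, leave the body in urine and depend on pulsatile growth hormone, which makes many of them more abundant in males. The 9 genes were found by symbol among 41388 annotated features, and the set was selected on earlier results of the same contrast, in which Obp2a had stood out. Differences between the groups are therefore given for these genes as a description.

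Liver RNA was sequenced from db/db mice, which lack a working leptin receptor and become obese and diabetic, to ask how more NAMPT, the rate-limiting enzyme of NAD salvage, changes the diabetic liver. Littermates of strain C57B/6J were randomised at 5 weeks of age, received an adenovirus through the tail vein and were 10 weeks old at sampling. The series description gives 4 to 5 weeks of expression. The paper gives shorter times after adenovirus delivery, in its methods and in a legend on db/db adipose tissue. Which time holds for these livers was not settled here. The vector encoded green fluorescent protein in 4 mice (AdGFP) and NAMPT in 4 mice (AdNAMPT), so every animal carried the db/db genotype and had received adenovirus, and no uninjected or lean mouse was included. The genotype label reads control or NAMPT overexpression, while the titles carry the db/db background. The paper states that its db/db studies used male mice.

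Libraries held 12006713 to 19879814 counts, and 3 counts, used as the smallest detectable amount, corresponded to 0.151 to 0.250 CPM, the count scaled to the library total. Hepatocyte markers were present in every library, with albumin at 7.67% to 9.94% of counts and the 8 listed markers summing to 105974 to 133728 CPM in AdGFP and 105492 to 130997 CPM in AdNAMPT. Nampt itself measured 102.3, 136.8, 152.7 and 141.6 CPM across the 4 AdGFP mice, and the 4 AdNAMPT mice gave 148.8, 120.5, 177.8 and 168.1 CPM. The Nampt transcript did not separate the groups (log2 fold change 0.08, SE 0.15), so AdNAMPT refers throughout to the libraries labelled that way. AdNAMPT replicate 1 stood apart from the other 3 of its group: 12 listed male-biased liver transcripts summed to 2226 CPM there and to 494 to 657 CPM in the others, and 14 female-biased transcripts to 265 CPM against 1361 to 1463 CPM. Values without this library are given beside the results in which it stood out. RNA composition also moved with the groups: Gm42418, a feature known to overlap an rRNA repeat, took 0.996% to 2.25% of counts in AdGFP and 0.200% to 0.233% in AdNAMPT, and the annotated rRNA features took 1.77% to 2.63% against 0.863% to 1.62%. The part of this shift in the differences below was not tested. The tissue was bulk liver, in which fewer cells of a type and less RNA per cell cannot be told apart.

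Obp2a has a close relative, Obp2b, 37.0 kb away, and 50-base reads must be assigned to 1 gene or the other. The coding sequences are 75.2% identical over their alignment. Of the 695 different 50-base words in Obp2a transcripts, 88.3% occurred in no other annotated gene, and the remaining 81 words all lay in Obp2b. Obp2b had 0 counts in all 8 libraries, which allows up to 3 counts in each.

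Obp2a (ENSMUSG00000062061, protein coding, chromosome 2, 25700043 to 25703326, plus strand, GRCm38) was close to the detection limit in AdGFP livers and well above it in AdNAMPT livers. It had 10, 3, 7 and 9 counts in AdGFP replicates 1 to 4, or 0.683, 0.212, 0.418 and 0.658 CPM. In AdNAMPT replicates 1 to 4 it had 336, 94, 247 and 141 counts, or 28.0, 6.42, 12.4 and 8.31 CPM. The lowest AdNAMPT library lay above the highest AdGFP library, and their 95% Wilson intervals, which cover counting error only, were 5.25 to 7.85 and 0.371 to 1.26 CPM.

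Averaged by group, the level was 0.493 ± 0.222 CPM (SD, n = 4) for AdGFP and 13.8 ± 9.79 CPM (SD, n = 4) for AdNAMPT. The estimated log2 fold change of Obp2a was 4.12 (SE 0.61, 95% interval 2.77 to 5.47), a 17.4-fold higher level with an interval of 6.81 to 44.5. Obp2a was 1 of 2 transcripts called higher among 12270 tested, which is 0.0163%, while 34 transcripts or 0.277% were called in either direction (limma, Benjamini-Hochberg adjusted p at most 0.05). Since Obp2a was chosen by this contrast, nothing further is read from its place among the calls. All its AdGFP values lay under the 1 CPM of the filter on low counts, so it was tested only through its AdNAMPT libraries. Its SE, interval and call are therefore descriptions. Without AdNAMPT replicate 1, the library with the highest Obp2a level, the log2 fold change was 4.04.

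The Obp2a estimate stayed between 3.89 and 4.70 under all 16 alternative settings, although its call did not. It was lost without sample quality weights (log2 fold change 4.45) and when any AdGFP library, AdNAMPT replicate 3 or AdNAMPT replicate 4 was left out. The AdGFP mean rests on 3 to 10 counts a library, and the within-group spread of Obp2a was wide. The AdNAMPT libraries ranged over 4.36-fold and the AdGFP libraries over 3.23-fold.

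**Figure D1:**
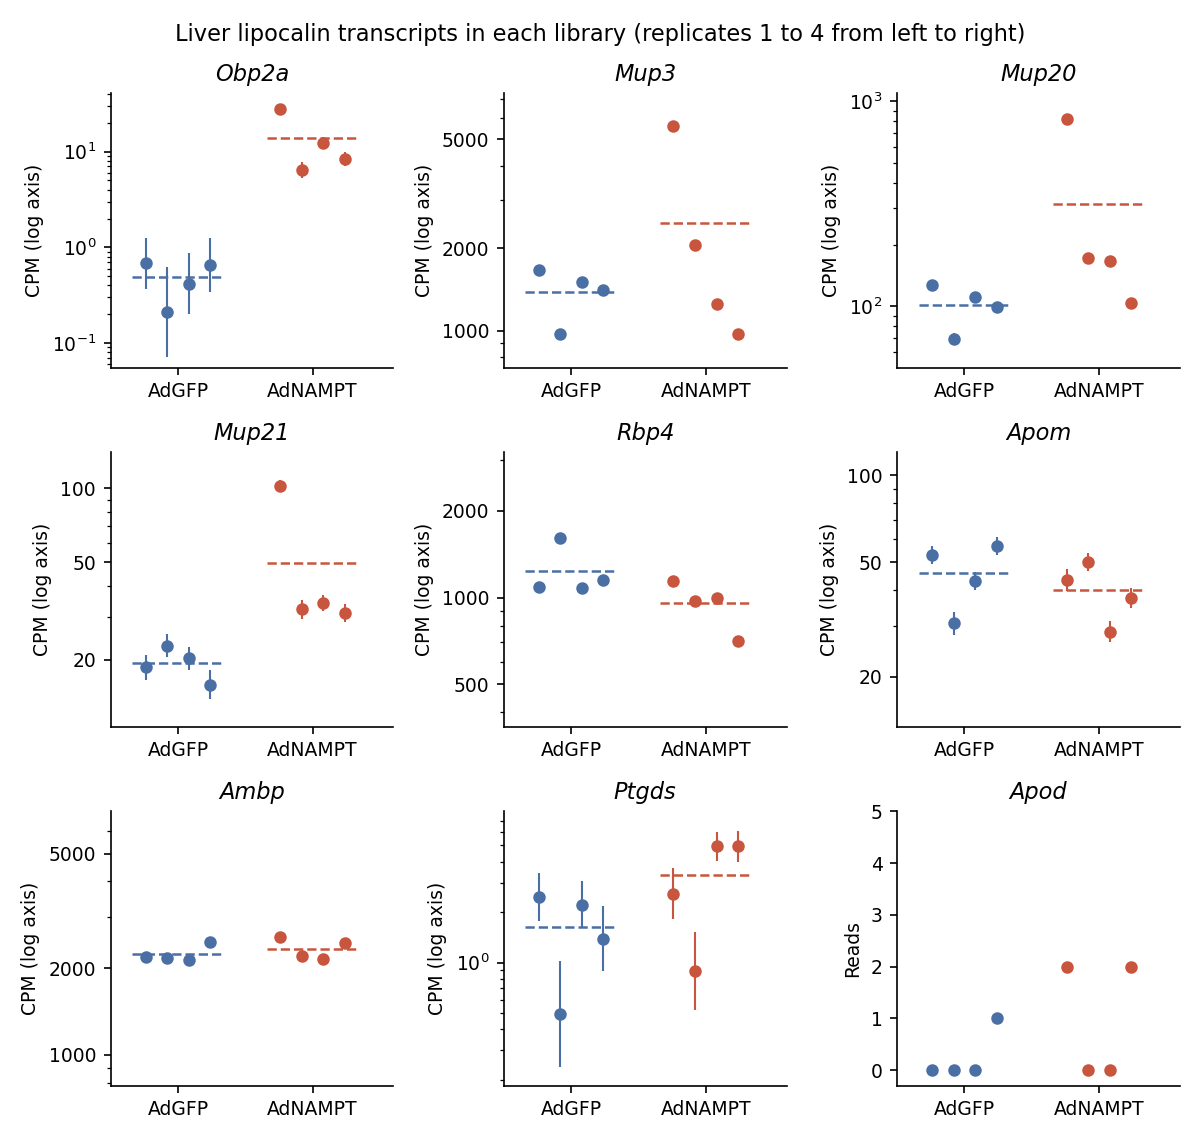
Level of each of the 9 lipocalin genes in the 4 AdGFP (blue) and 4 AdNAMPT (red) libraries, in CPM on a log axis (Apod in reads on a linear axis); bars are 95% Wilson intervals for counting error and dashed lines are group means. Obp2a is separated by group, Mup21 is separated by a smaller step, and Mup3, Mup20 and Mup21 share a high value in AdNAMPT replicate 1.

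Obp2a lies in a run of lipocalin genes, most of them known from epididymis, nasal glands or other secretory tissues, and most had few or no counts in these livers. Of 13 listed lipocalin genes that start within 1 Mb, 3 passed the filter on low counts, namely Ptgds, C8g and Obp2a. Another 6 had no count in any library (Lcn5, Lcn6, Lcn10, Obp2b, Lcn3 and Lcn11). The other 4 had 12 counts or fewer over all libraries, with Lcn12 at 12, Lcn8 at 5, and Lcn9 and Lcn4 at 1 each. C8g, the gamma chain of complement component C8, was at a mean of 379 CPM in AdGFP and 395 CPM in AdNAMPT. Its log2 fold change was -0.06 (SE 0.08), with overlapping groups, 201 kb from Obp2a.

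**Figure D2:**
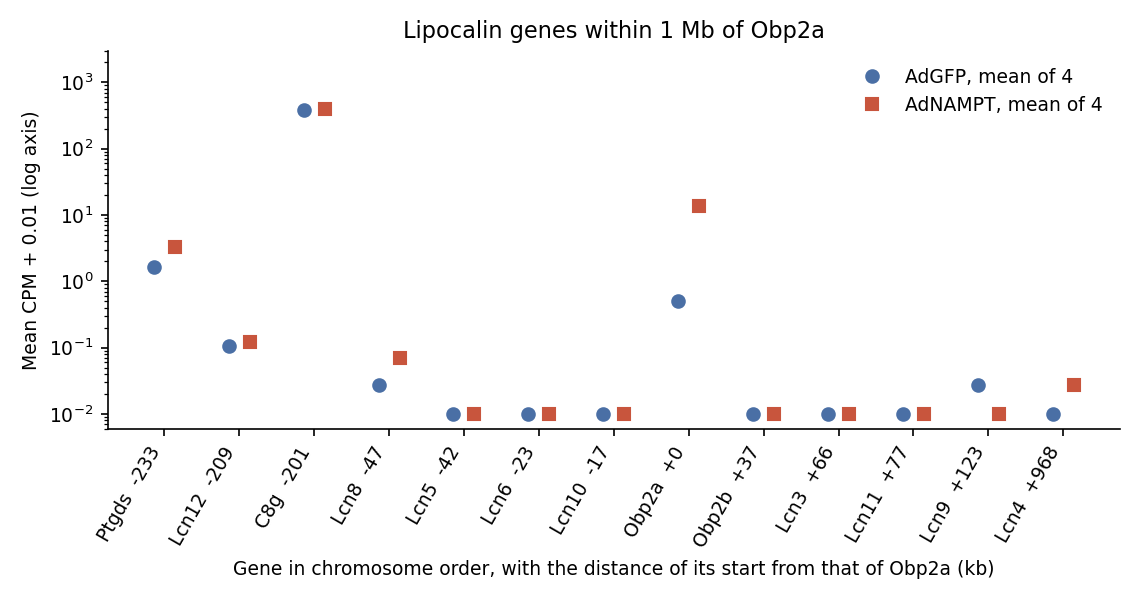
Mean CPM plus 0.01, on a log axis, of the 13 lipocalin genes within 1 Mb of Obp2a in chromosome order, for the 4 AdGFP (circles) and 4 AdNAMPT (squares) libraries. Obp2a moves from 0.493 to 13.8 CPM, C8g stays near 379 to 395 CPM, and most of the others lie at the bottom of the plot.

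Among expressed genes of any family, the 3 nearest to Obp2a on each side were Fcna, Tmem141 and Rabl6 at lower coordinates and Bmyc, Camsap1 and Ubac1 at higher coordinates. Fcna, the ficolin A gene of Kupffer cells, was 72.0 kb away and lower in AdNAMPT. Its levels were 24.6 to 31.1 CPM in AdGFP and 16.8 to 19.7 CPM in AdNAMPT (log2 fold change -0.81, SE 0.08, limma adjusted p = 0.000824). The other 5 neighbours had log2 fold changes from -0.03 to 0.19 and none was called. Bmyc, the nearest at 3.41 kb, was at 0.657 to 1.48 CPM in AdGFP and 0.615 to 2.25 CPM in AdNAMPT. Kupffer cell markers summed to 211 to 264 CPM in AdGFP and 154 to 254 CPM in AdNAMPT, none of the 6 at 0, and their part in the Fcna value was not tested.

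The sequence just upstream of Obp2a is shown with that of Mup3 and Mup21, because Obp2a and Mup21 were the 2 members whose groups did not overlap upwards and Mup3 is the closest relative of Mup21 among the members. Each stretch is the 100 bases before the start of the gene in the deposited annotation, 5′ to 3′, cut from RefSeq promoter sequences on GRCm38.p6. The stretches are chr2:25699943-25700042 on the plus strand for Obp2a, chr4:62087343-62087442 on the minus strand for Mup3 and chr4:62150864-62150963 on the minus strand for Mup21. Capitals mark TATAAA in Obp2a, and in the other two sequences the bases that are not identical when the pair is aligned.
Obp2a: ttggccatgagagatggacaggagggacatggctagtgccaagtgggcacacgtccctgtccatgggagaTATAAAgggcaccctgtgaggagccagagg
Mup3: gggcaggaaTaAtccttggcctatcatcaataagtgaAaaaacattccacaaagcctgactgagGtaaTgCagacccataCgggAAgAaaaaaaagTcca
Mup21: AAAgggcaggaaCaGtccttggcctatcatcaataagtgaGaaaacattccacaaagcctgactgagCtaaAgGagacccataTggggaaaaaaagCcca
The Mup3 and Mup21 stretches shared 89 bases over 103 alignment columns. TATAAA began 30 bases before the Obp2a start given in the deposited annotation. From the RefSeq start, which lies inside the annotated gene, its first base was at -61.

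RefSeq promoters, which run from 250 bases before to 50 bases after a start, were found for 8 of the 9 members, with 2 starts for Rbp4 and no entry for Mup20. In 5 motifs searched on both strands, TATAAA occurred in 2 of these 9 promoters (Obp2a and 1 Rbp4 start) and in 13.6% of all 32851 promoters. TGTTTAC, read by FOXA and FOXO factors, occurred in the other Rbp4 promoter and in 3.65% of all. The STAT5 and BCL6 motif TTCNNNGAA (8.30% of all), the C/EBP motif TTGCGCAA (0.183%) and the E-box CACGTG (7.15%) had no match in any member promoter. These are matches of letters within a window of 300 bases and say nothing of binding.

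The 3 major urinary proteins among the members showed a high value in 1 AdNAMPT library and, for Mup21 alone, a step between the groups. Mup3 (ENSMUSG00000066154, chromosome 4, 62083476 to 62087342, minus strand) was at 1666, 971, 1513 and 1406 CPM in AdGFP and 5611, 2058, 1251 and 971 CPM in AdNAMPT. Its groups overlapped, and AdNAMPT replicate 4 was as low as the lowest AdGFP library. The log2 fold change of Mup3 was 0.19 (SE 0.33, 95% interval -0.54 to 0.93), and it turned to -0.17 without AdNAMPT replicate 1 and to -0.11 without AdNAMPT replicate 2. The edgeR estimate for Mup3 was 0.72, also not called.

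Mup20 (ENSMUSG00000078672, chromosome 4, 62050234 to 62054158, minus strand) encodes darcin, the male urinary pheromone. It was at 126.6, 69.4, 111.0 and 98.8 CPM in AdGFP and at 822.6, 171.1, 165.9 and 103.5 CPM in AdNAMPT. AdNAMPT replicate 1 held 5.60 times the mean of the other 3, and replicate 4 lay inside the AdGFP range. The log2 fold change was 0.74 (SE 0.37, 95% interval -0.07 to 1.55), or 0.37 without that library. The edgeR estimate for Mup20 was 1.52, and neither tool called it.

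Mup21 (ENSMUSG00000066153, chromosome 4, 62147932 to 62150863, minus strand) was at 18.7, 22.8, 20.3 and 15.9 CPM in AdGFP. In AdNAMPT it was at 101.8, 32.2, 34.2 and 31.1 CPM, so all 4 libraries lay above all of AdGFP, and 3 of them within 31.1 to 34.2 CPM. The log2 fold change was 0.87 (SE 0.24, 95% interval 0.34 to 1.41) and was not called with all 8 libraries. Without AdNAMPT replicate 1 it was 0.69 and was called by limma (adjusted p = 0.0309). Among all genes, 2.09% had groups that did not overlap and were higher in AdNAMPT on the TMM scale. Obp2a and Mup21 were the members of this kind, and since the set was selected on this contrast nothing is read from that count. The scaling moved the background: on plain CPM 903 genes were higher and 105 lower without overlap, and on the TMM scale 257 and 331.

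**Figure D3:**
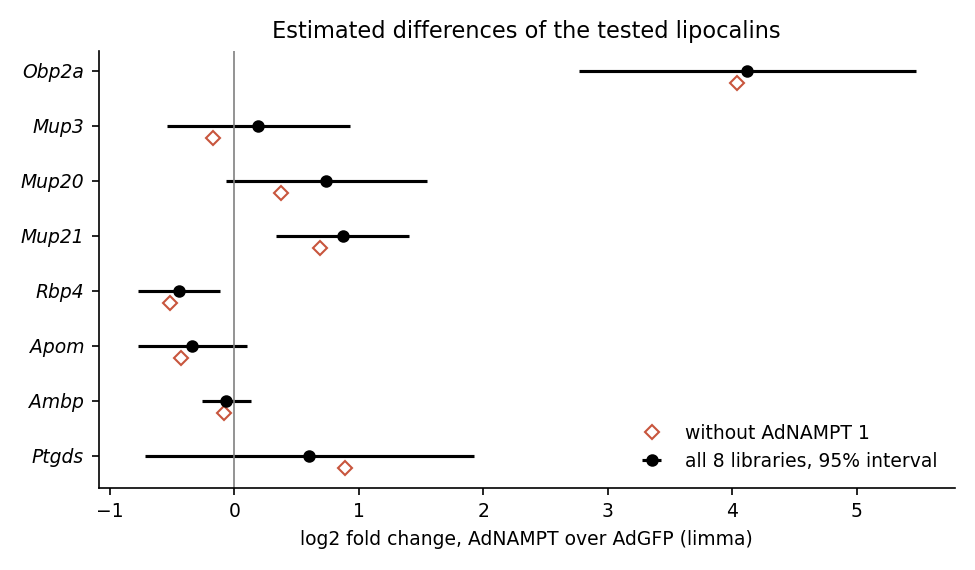
Log2 fold change, AdNAMPT over AdGFP, of the 8 tested lipocalins from limma with 95% intervals (black), and the estimate without AdNAMPT replicate 1 (open diamonds). Obp2a lies at 4.12, the Mup genes between 0.19 and 0.87 move left without that library, and Rbp4 lies at -0.44.

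How well reads can be told apart differs between the Mup genes, as their coding sequences show. A stretch of 90 coding bases is given for the 3 members, with the 17 positions that are not the same in all of them in capitals (GENCODE M21 on GRCm38, minus strand, spliced, coding bases 100 to 189 of Mup3 within chr4:62086853-62087132, and 91 to 180 of Mup21 within chr4:62150248-62150662 and of Mup20 within chr4:62053533-62053959).
Mup3: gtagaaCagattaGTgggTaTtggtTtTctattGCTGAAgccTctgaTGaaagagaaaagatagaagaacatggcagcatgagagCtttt
Mup21: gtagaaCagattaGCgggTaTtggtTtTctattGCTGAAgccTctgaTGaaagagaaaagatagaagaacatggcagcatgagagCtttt
Mup20: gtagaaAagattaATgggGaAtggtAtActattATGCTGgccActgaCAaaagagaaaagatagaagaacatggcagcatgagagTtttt
Over the whole coding sequence Mup3 and Mup21 were 94.9% identical, Mup20 and Mup21 88.3%, and Mup3 and Mup20 87.6%. The share of 50-base words found in no other gene was 86.7% in Mup3, 80.7% in Mup21 and 49.5% in Mup20.

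Most of the remaining Mup genes are far more alike, and their counts are uncertain. Mup10 and Mup17 were 98.9% identical in coding sequence. Words unique to 1 gene made up 23.5% of Mup10 and 21.9% of Mup17 and were absent in Mup15 and Mup19. The study counted uniquely aligned reads, so reads from shared words are missing from these genes, and levels cannot be compared between Mup genes with different shares. Of 18 other Mup genes found, 12 passed the filter and none was called by limma, edgeR or DESeq2, with 1 at an unadjusted p under 0.05 in limma (Mup2, 3.60 to 10.0 CPM in AdGFP and 2.46 to 7.50 CPM in AdNAMPT). Over all genes 9.69% had such a p. The median log2 fold change of these 12 genes had no settled direction: it was -0.24 in limma, beside 0.00153 for all genes, and -0.56 without AdNAMPT replicate 1, but 0.05 without sample weights, 0.40 in edgeR and 0.43 in DESeq2.

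**Figure D4:**
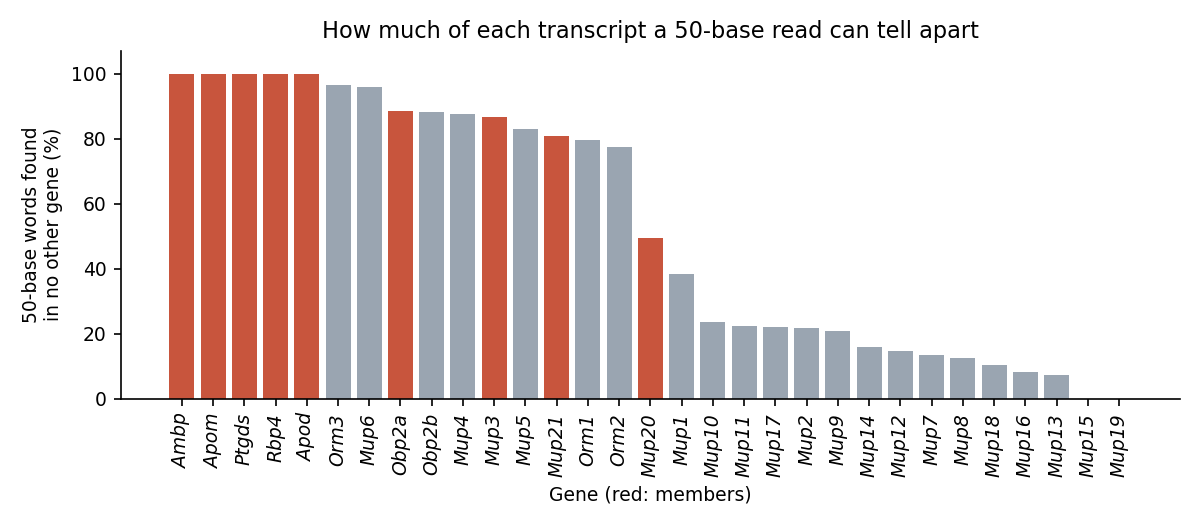
Share of the 50-base words of each gene's transcripts that occur in no other annotated gene, on either strand, for the members (red) and related genes (grey). Rbp4, Apom, Ambp and Ptgds are at 100%, Obp2a at 88.3%, Mup20 at 49.5%, and most other Mup genes under 25%.

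Within AdNAMPT, replicate 1 held the highest level of all 12 tested other Mup genes, by 2.14 to 26.2 times the mean of the other 3 libraries. Their summed level was 615 CPM there, 105 to 121 CPM in the other AdNAMPT libraries and 92.1 to 200.1 CPM in AdGFP. In that library all 8 tested male-biased genes were also the highest of the group, with Cyp2d9, a cytochrome, at 1131 CPM against 138 to 268 CPM. All 11 tested female-biased genes were the lowest of the group, with Cyp2b9, also a cytochrome, at 164 CPM against 541 to 565 CPM. Obp2a was 3.09 times the mean of the other 3 in the same library, Mup3 3.93 times and Mup21 3.13 times. The part of the sex-biased pattern in these values was not tested, and the Obp2a estimate without the library was given above.

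**Figure D5:**
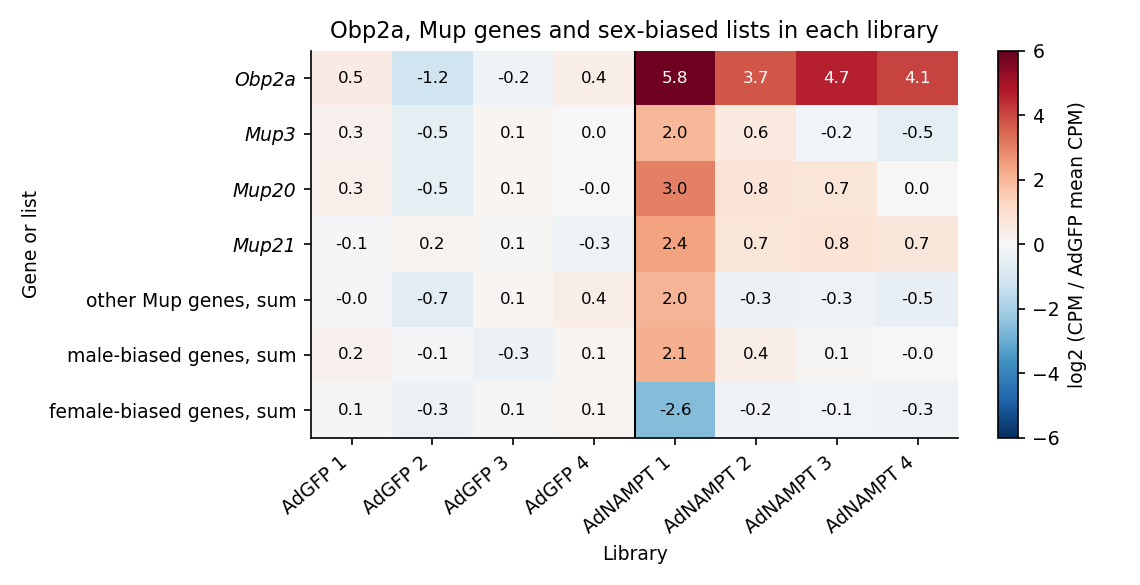
Log2 of the level in each library relative to the AdGFP mean, for Obp2a, 3 Mup genes, the sum of the other Mup genes and the sums of the male-biased and female-biased lists. The Mup and male-biased rows are high and the female-biased row low in AdNAMPT replicate 1, while Obp2a is high in all 4 AdNAMPT libraries.

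Growth hormone controls Mup transcription through its receptor and the transcription factor STAT5, so the axis was listed beside the Mup genes. All 11 listed genes were tested and none was called by limma or edgeR, with 5 at an unadjusted p under 0.05 in limma, beside 9.69% of all genes, and DESeq2 called 2, Cish and Onecut1, beside 0.612% of all genes. Cish, a STAT5-induced inhibitor of cytokine signalling, was at 0.365 to 1.48 CPM in AdGFP and 1.84 to 6.91 CPM in AdNAMPT (log2 fold change 1.91, SE 0.47, limma adjusted p = 0.228). The liver transcription factor Onecut1, named here because DESeq2 called it, was at 3.35 to 5.38 CPM in AdGFP and 6.42 to 24.2 CPM in AdNAMPT (log2 fold change 0.92, SE 0.29), or 0.83 without AdNAMPT replicate 1, where it was highest. Ghr, the receptor, was at 454 to 485 CPM in AdGFP and 402 to 458 CPM in AdNAMPT (log2 fold change -0.20, SE 0.07). For Hnf4a, a hepatocyte transcription factor, the groups overlapped (log2 fold change -0.02, SE 0.13, or -0.15 without that library). Igf1 was at 379 to 452 CPM in AdGFP, at 476 CPM in AdNAMPT replicate 1 and at 330 to 353 CPM in the other AdNAMPT libraries. Over the whole list 5 estimates were above 0 and 6 below, with a median of -0.02.

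The sex-biased lists had no called gene in limma, edgeR or DESeq2, with 0 of 8 male-biased and 3 of 11 female-biased genes at an unadjusted p under 0.05 in limma, a share of 9.69% over all genes. The male-biased median was 0.19 with all libraries and 0.05 without AdNAMPT replicate 1, and the female-biased median was -0.44 and -0.15. Cyp2b13, a female-biased cytochrome, was at 298 to 499 CPM in AdGFP and 10.2 to 259 CPM in AdNAMPT, with a log2 fold change of -1.43 (SE 0.62), or -0.94 without that library. Cux2, a female-biased transcription factor, was at 0.478 to 0.847 CPM in AdGFP, 0.416 CPM in AdNAMPT replicate 1 and 1.57 to 1.77 CPM in the other 3.

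Rbp4, the plasma carrier of retinol, was somewhat lower in AdNAMPT once libraries were scaled. Rbp4 (ENSMUSG00000024990, chromosome 19, 38116620 to 38125321, minus strand) was at 1091, 1613, 1084 and 1148 CPM in AdGFP and 1144, 975, 996 and 708 CPM in AdNAMPT. On plain CPM the groups overlapped through AdNAMPT replicate 1, and on the TMM scale all AdNAMPT libraries (708 to 1107) lay below all AdGFP libraries (1132 to 1751). The log2 fold change was -0.44 (SE 0.15, 95% interval -0.78 to -0.11), or -0.35 scaled by library size alone, and Rbp4 was not called. Groups that did not overlap and were lower in AdNAMPT on the TMM scale were found for 2.70% of all genes, and Rbp4 was the 1 member of this kind, from which nothing is read either. AdGFP replicate 2 was high and AdNAMPT replicate 4 low, and the Rbp4 log2 fold change was -0.34 without the former and -0.32 without the latter.

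RBP4 circulates bound to transthyretin and is taken up by STRA6 and related receptors. Of 5 genes listed beside Rbp4, 4 were tested and none was called by limma, edgeR or DESeq2. An unadjusted p under 0.05 in limma was found for 2 of them and for 9.69% of all genes. Ttr, which encodes transthyretin, was at 5205 to 5977 CPM in AdGFP and 5758 to 7715 CPM in AdNAMPT (log2 fold change 0.13, SE 0.12). Stra6l, the liver receptor for RBP4, was at 158 to 195 CPM in AdGFP and 132 to 184 CPM in AdNAMPT (log2 fold change -0.26, SE 0.10). Lrp2, an endocytic receptor, was at 0.273 to 1.08 CPM in AdGFP and 0.943 to 1.75 CPM in AdNAMPT (log2 fold change 0.88, SE 0.38).

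Apom encodes the HDL protein that carries sphingosine 1-phosphate. Apom (ENSMUSG00000024391, chromosome 17, 35128997 to 35132050, minus strand) was at 52.9, 30.6, 43.1 and 56.9 CPM in AdGFP and 43.3, 50.1, 28.7 and 37.5 CPM in AdNAMPT. The groups overlapped over most of their range (log2 fold change -0.34, SE 0.20, 95% interval -0.78 to 0.10). Leaving out AdNAMPT replicate 3, 4 or 2 moved the Apom estimate to -0.09, -0.20 and -0.61. Of 15 HDL and sphingosine 1-phosphate genes, 12 were tested and none was called by limma, edgeR or DESeq2. In limma 1 had an unadjusted p under 0.05 (Sphk2, a sphingosine kinase), beside 9.69% of all genes. The median log2 fold change of the list was -0.03. Apoa1, the main HDL protein, was at 0.09 (SE 0.12) and Lcat, which esterifies HDL cholesterol, at -0.06 (SE 0.07) in log2 fold change. S1pr3, a sphingosine 1-phosphate receptor, had the lowest estimate at -0.37 (SE 0.19).

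Ambp encodes a precursor that is cut into the lipocalin alpha-1-microglobulin and bikunin, a protease inhibitor. Ambp (ENSMUSG00000028356, chromosome 4, 63143275 to 63154799, minus strand) was the steadiest member, at 2187, 2172, 2133 and 2466 CPM in AdGFP and 2565, 2214, 2148 and 2439 CPM in AdNAMPT. Its log2 fold change was -0.06 (SE 0.09, 95% interval -0.26 to 0.13). Bikunin is joined to some heavy chains of the inter-alpha-trypsin inhibitor family. All 5 tested genes of the heavy chain list had estimates below 0, with a median of -0.24. None was called by limma, edgeR or DESeq2, and 2 had an unadjusted p under 0.05 in limma, which 9.69% of all genes had. Itih1 was the lowest at -0.28 (SE 0.08), with 452 to 531 CPM in AdGFP and 397 to 472 CPM in AdNAMPT.

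Ptgds, the lipocalin-type prostaglandin D synthase, was near the filter threshold. Ptgds (ENSMUSG00000015090, chromosome 2, 25466709 to 25470046, minus strand) was at 2.46, 0.494, 2.21 and 1.39 CPM in AdGFP and 2.58, 0.888, 4.93 and 4.95 CPM in AdNAMPT, from 7 to 98 counts. AdNAMPT replicates 3 and 4 were the highest, and the other 2 lay within or close to the AdGFP range. The log2 fold change was 0.60 with an SE of 0.60, and its direction depended on single libraries, at -0.22 without AdNAMPT replicate 3, -0.04 without replicate 4 and 1.41 without replicate 2. The spread between mice exceeded counting error, with 95% Wilson intervals of 0.519 to 1.52 CPM in AdNAMPT replicate 2 and 4.05 to 6.01 CPM in replicate 3. Without AdGFP replicate 2 the estimate was 0.28. Mesothelial markers, expressed by cells at the liver surface, summed to 5.26 to 14.6 CPM in AdGFP and 5.33 to 14.3 CPM in AdNAMPT, none of the 5 at 0, and their part in Ptgds was not tested. Of 6 other prostaglandin D2 genes, 3 were tested, and none was called by limma, edgeR or DESeq2 or had an unadjusted p under 0.05 in limma. Ptgs1, a cyclooxygenase, was at 0.04 (SE 0.10) and Hpgds, the hematopoietic synthase, at -0.15 (SE 0.32, or -0.0021 without AdNAMPT replicate 1) in log2 fold change.

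Apod, best known from nerve and fibroblasts, was at the detection limit. Apod (ENSMUSG00000022548, chromosome 16, 31296192 to 31314808, minus strand) had 0, 0, 0 and 1 counts in AdGFP and 2, 0, 0 and 2 counts in AdNAMPT. No library passed 3 counts, so no fold is given. Apod was the only member left out by the filter.

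Across the set, 8 of 9 members were tested, with 5 estimates above 0 and 3 below. The 1 called was Obp2a, chosen by this contrast, and 0.277% of all tested genes were called. Levels per length are compared in RPKM, which divides CPM by transcript length in kilobases, with the mean over all 8 libraries. The Mup values count only reads that fit 1 gene, so their place in this order is uncertain. Mup3 and Ambp led, at 1808 and 1626 RPKM, ranks 34 and 38 among tested genes, and could not be ordered because their ranges overlapped. Rbp4 followed at 844 RPKM with a highest library of 1243 RPKM, below every Ambp library, and overlapped Mup20. Mup20 at 225, Mup21 at 51.1, Apom at 42.3 and Obp2a at 9.60 RPKM each overlapped the next in order. Obp2a ranged from 0.285 to 37.6 RPKM and Ptgds, at 1.51 RPKM, also overlapped it. The order differed by group: Obp2a was at 0.662 RPKM in AdGFP, under Ptgds at 0.994, and at 18.5 RPKM in AdNAMPT against 2.02. Mup21 was at 28.7 RPKM in AdGFP, under Apom at 45.3, and at 73.6 RPKM in AdNAMPT against 39.4. Mup3 was at 1300.5 RPKM in AdGFP, under Ambp at 1589, and at 2315 RPKM in AdNAMPT against 1662. That Mup3 mean held replicate 1 at 5254 RPKM, with replicates 2 to 4 at 1927, 1171 and 909 RPKM. Ambp was at 1820, 1571, 1525 and 1731 RPKM in AdNAMPT replicates 1 to 4, above Mup3 in replicates 3 and 4.

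The members also differed in how much they varied within a group. The within-group SD of log2 CPM was 0.11 for Ambp, 0.29 for Rbp4 and 0.37 for Apom, beside a median of 0.18 over tested genes. It was 0.60 for Mup21, 0.75 for Obp2a, 0.81 for Mup3, 0.94 for Mup20 and 1.004 for Ptgds, all above the 95th percentile of tested genes at 0.55. The Mup and Obp2a values include AdNAMPT replicate 1, where each was the highest of its group. Mup20, for example, was at 823 CPM there against 104 to 171 CPM, and no SD was computed without that library. Counting error also enters for Obp2a and Ptgds, with 3 and 7 counts in AdGFP replicate 2.

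The listed relatives outside the Mup family gave no call. Of 17 other secreted lipocalins found, 5 were tested, all with estimates below 0 and a median of -0.09. None was called by limma, edgeR or DESeq2, and 1 had an unadjusted p under 0.05 in limma, beside 9.69% of all genes. That gene was Orm2, an acute-phase lipocalin, at 152 ± 21.7 CPM (SD, n = 4) for AdGFP and 121 ± 26.6 CPM (SD, n = 4) for AdNAMPT (log2 fold change -0.49, SE 0.15). Its more abundant copy Orm1 was at -0.09 (SE 0.12). Intracellular lipid-binding proteins, a related barrel family, had 6 of 15 tested. None was called by limma, edgeR or DESeq2 or was at an unadjusted p under 0.05 in limma. Fabp5 was highest at 0.66 (SE 0.43) and Fabp7 lowest at -0.30 (SE 0.23). The Fabp5 estimate depended on single libraries. It was 1.02 without AdNAMPT replicate 1 and 1.17 without replicate 2, but 0.10 without replicate 3 and 0.19 without replicate 4. All 14 gluconeogenic and lipogenic genes were tested and none was called by limma, edgeR or DESeq2. In limma 1 had an unadjusted p under 0.05 (Pck1, log2 fold change -0.49, SE 0.17), beside 9.69% of all genes. The lipogenic desaturase Scd1 was highest at 1.29 (SE 0.65), with 1949 to 18115 CPM in AdGFP and 2630 to 22888 CPM in AdNAMPT.

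The transcripts whose levels most resembled Obp2a over the 8 libraries, by Pearson's r in log2 CPM, were Notch1 (0.989), Trip6 (0.975), Dpysl3 (0.971), Shroom1 (0.955) and Hist1h1b (0.948). Their own log2 fold changes were small, from 0.20 to 0.47, and none was called. After group means were subtracted, the closest were Tbc1d25 (0.980), Slc22a7 (0.976), Cct6b (0.973), Dohh (0.966) and Gtf3c1 (0.960), so no gene stood in both lists. Among the members, the within-group likeness to Obp2a was 0.83 for Mup20, 0.72 for Mup3 and 0.61 for Mup21. The libraries behind these values share depth and the features of AdNAMPT replicate 1, and with 8 points drawn from 12270 genes the values are descriptions only.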

How the data were processed

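The series holds 8 liver RNA-seq libraries, 4 AdGFP and 4 AdNAMPT, each 1 mouse by its title. The authors aligned single 50-base reads to GRCm38 with STAR (2.4.0b in the submitters' processing notes) and deposited whole-number counts of uniquely aligned reads per gene from featureCounts 1.4.5. Strand use was not given in the sources used here, and the labels name rRNA depletion where the methods describe poly-A selection. The authors also deposited CPM, counts scaled to each library's total, and RPKM, which divides CPM by gene length, and both were recomputed from the counts without a difference.

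The main test followed the methods text of the study: 355 rRNA features left out, more than 1 CPM in at least 3 libraries (12270 genes), TMM scaling, and limma with voom and sample quality weights, with calls at 0.05 or less after Benjamini-Hochberg adjustment. The paper's figure legend for these livers instead names edgeR's exact test, with pathways shown at an unadjusted p under 0.05. That exact test was not run here. Alternatives were edgeR's quasi-likelihood test, DESeq2, no sample weights, 2 other scalings, no filter, a mean count of at least 10, a replicate block and leaving out each library. On simulated counts for AdNAMPT against AdGFP, limma found 192 of 197 genes changed 3-fold (97.5%) with 12 false calls among 12145 genes. DESeq2 made 31 false calls there. The simulated libraries had no deviant mouse and no shift in RNA composition, so these values do not give the power in the real data. Members and lists were chosen with earlier results of these data known. Named genes were the members, in each list the called genes, the highest and lowest fold change and the 2 highest mean RPKM, the 5 genes most like Obp2a on each scale, the 3 expressed neighbours on each side, and Nampt. Intervals (95%, Wilson) and the floor of 3 counts cover counting error only. GENCODE M21 matched 40254 of 41388 features and gave coding sequences, pairwise identities over global alignments, and 50-base words matched exactly against all transcripts on both strands. RefSeq promoters were searched for motifs on both strands. Tests ran in R 4.3.3 (DESeq2 1.42.0, edgeR 4.0.16, limma 3.58.1). Tables and plots were made in Python 3.11.15 with matplotlib 3.10.9, scipy 1.17.1, numpy 2.4.6 and pandas 2.3.3. Protein features were not analysed here. One listed gene and one coding stretch are not reported here.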

Additional observations from a re-analysis of the deposited data

Results flagged for a closer look

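Values were flagged where the highest or lowest of 4 libraries lay far from the nearest other, by Dixon's 95% critical value. Chance flags about 1 in 20 groups, or 8.2 of the 164 groups examined, and 22 were found, of which 12 concerned AdNAMPT replicate 1 and 7 AdGFP replicate 2.

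In AdNAMPT replicate 1 the highest values of the group were Mup20 at 823 CPM (others 104 to 171), Mup21 at 102 CPM (others 31.1 to 34.2), Mup17 at 75.6 CPM (others 12.6 to 19.8) and Mup10 at 304 CPM (others 50.8 to 74.0). The other Mup genes summed to 615 CPM and the male-biased genes to 2230 CPM, with Cyp2d9 at 1130 CPM and Cyp7b1 at 110 CPM, and Lcat was at 372 CPM. The lowest values of the group there were the female-biased sum at 265 CPM, Cyp2b9 at 164 CPM and Cux2 at 0.416 CPM.

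In AdGFP replicate 2 the highest values were Rbp4 at 1610 CPM, Cux2 at 0.847 CPM and the adipocyte marker sum at 2.68 CPM. The lowest there were Notch1 at 18.4 CPM, Gtf3c1 at 35.9 CPM, Rabl6 at 13.9 CPM and Fcna at 24.6 CPM. In AdGFP replicate 4, Ambp was at 2470 CPM and Apod at 0.0731 CPM, the latter from a single read. In AdGFP replicate 3 the mesothelial marker sum was 14.6 CPM.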

How the results depend on the processing

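The Obp2a log2 fold change kept its direction under all 16 alternatives. It was 4.45 without sample quality weights (limma adjusted p = 0.124, no longer called) and 3.89 to 4.40 when 1 library was left out, where its call was lost in 6 of 8 cases, without any of AdGFP replicates 1 to 4, AdNAMPT replicate 3 or AdNAMPT replicate 4. The number of lipocalins changed, 1 in the main test, was 0 without sample weights and 0 to 2 when 1 library was left out, with 2 (Obp2a and Mup21) without AdNAMPT replicate 1. DESeq2 called 75 genes in all against 34, and 2 of the growth hormone axis against 0. The other 10 lists had 0 called genes under every alternative. Scaling by library size alone moved the median of all genes from 0.00153 to 0.0859 and the ApoM list median above 0, to 0.05. Deviations of same-numbered libraries correlated at 0.225, -0.0451, 0.213 and 0.00516, and those of differently numbered libraries at -0.301 to 0.239. These values do not decide whether replicate numbers paired the samples, and the main test used no pairing. With the replicate block the Obp2a log2 fold change was 4.50 and 41 genes were called. Among 992 repeats for single named genes, 987 kept their direction and side of the threshold as scored, where a sign change of an uncalled gene did not count, and 5 became called (Mup21, Cish and 3 for Slc22a7). Depth limited Apod and the AdGFP level of Obp2a.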
